A study of Mus musculus with 12 samples.

Results

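The genes described here are 46 cell cycle and DNA replication genes, taken by name from an FPKM table of mouse cumulus cells, and all 46 were among its 23997 rows. They fall into 9 genes of G1 and the G1/S transition, 18 replication genes and 19 mitosis genes, and the last 2 sets are described separately. FPKM is the number of sequenced fragments per kilobase of transcript, scaled to the mapped fragments of the library. The 12 libraries came from C57BL/6J female mice that were either ClpP knockout (ClpP-/-, here KO) or wild type (WT), at 3 or 6 months of age, with 3 libraries in each of the 4 groups. All mice had received 5 IU of PMSG, a gonadotropin that stimulates follicle growth, and the cells were collected 44 h later per the treatment protocol, or 48 h later per the series design. A library held the RNA of 100 cumulus cells pooled within 1 mouse. The libraries of a group are taken here as separate animals, which pooling within a mouse does not by itself establish. The labels also list passage P1 for the cells. ClpP is a protease of the mitochondrial matrix, and the study asked what its loss does to cumulus cells with reproductive age.

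Cumulus cells are the granulosa cells that surround the oocyte, and they divide while the follicle grows. In the cell cycle, D-type and E-type cyclins with their kinases carry a cell from G1 into S phase and release E2F transcription factors, which switch on replication genes. A later wave of genes for the mitotic kinases, the spindle and the checkpoint is switched on for G2 and M phase, largely through CHR and CCAAT elements in their promoters. A cell that leaves the cycle loses both waves, while inhibitors such as p27, the product of Cdkn1b, restrain the G1 kinases.

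The targeted gene was low in every KO library. Clpp was at 88.2, 130 and 146 FPKM in the 3-month WT libraries and at 6.63, 1.10 and 2.07 FPKM in the 3-month KO libraries. At 6 months it was at 129, 124 and 114 FPKM in WT mice and at 1.63, 0.769 and 6.32 FPKM in KO. The KO means were 2.69% and 2.38% of the WT means at 3 and 6 months, and the exact 2-sided permutation p was 0.1 at either age, which is the lower limit for groups of 3. Read counts are unknown for this table, and the relative depth read from the spacing of its low values ran from 0.64 to 1.0.

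Libraries with the replicate number 3 stood apart in all 4 groups. Inha, an inhibin subunit of granulosa cells, was between 2419 and 6334 FPKM in the 12 libraries, so granulosa transcripts were present throughout. The sum of 12 granulosa and cumulus markers was lowest in the 3-month KO library 3, at 2825 FPKM, and highest in the 3-month KO library 2, at 6928 FPKM. Centred on each marker's own mean, their log2 average was -0.73 in that KO library 3. It was -0.78 and -0.53 in the 3-month WT libraries 2 and 1, and -0.23 in the 6-month KO library 3. The summed level of 6 luteal markers was 6542 FPKM in the 3-month KO library 3, 9206 FPKM in the 6-month KO library 3 and 1217 FPKM in the 6-month WT library 3, against 7.66 to 788 FPKM in the other 9. Of the 10 blood and leukocyte markers 9 were in the table, and their sum was 767, 945 and 1380 FPKM in the same 3 libraries, 745 FPKM in the 3-month WT library 3, and 0.472 to 45.8 FPKM in the other 8. The 9 theca and stromal markers summed to 1256 and 1552 FPKM in the KO libraries 3, to 154 and 109 FPKM in the WT libraries 3 at 3 and 6 months, and to 0.443 to 61.8 FPKM elsewhere. Among the 14 oocyte markers the sum was 78.3 and 275 FPKM in the 3-month and 6-month KO libraries 3 and 1.92 to 17.1 FPKM elsewhere. Small RNA genes made up 32.04% and 37.6% of the summed FPKM in the 3-month and 6-month KO libraries 3, and 25.7% in the 3-month WT library 1. The replication and mitosis members as sets are therefore compared with all 12 libraries and also without 3 libraries. These are the 3 libraries highest in luteal and in blood markers (3-month KO library 3, 6-month WT library 3 and 6-month KO library 3). For single genes the omission of 1 library is given more often. Leaving out all 4 libraries numbered 3 is named where it moved the call of a gene described here (Mki67 and Cdkn1a), and for some other values. Both omissions were chosen after the data were seen.

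The members varied widely between mice of the same group. The KO libraries 3 lay below the 12-library mean in all 18 replication members and all 19 mitosis members. The 3-month KO library 3 was below both other libraries of its group for 17 of 18 replication members and 19 of 19 mitosis members, by a median of 1.79 and 1.62 on the log2 scale, while 33.1% of all tested genes were below both there. The 6-month KO library 3 was below both for 18 of 18 and 19 of 19, by a median of 1.35 and 2.26, where 43.1% of all tested genes were. It held the lowest value of the series for 29 of 45 members, against 17.3% of all tested genes. In the 6-month WT library 3 the counts were 14 of 18 and 15 of 19, with 41.5% of all tested genes below both, and the medians were lower by 0.92 and 0.60. The 3-month WT library 3, high in hemoglobin transcripts, did not share this pattern, with 3 of 18 and 3 of 19 members below both of its group and 28.4% of all tested genes. In RNA from a pool of cells, fewer dividing cells and less cell cycle RNA per cell cannot be told apart. The luteal, theca, oocyte and small RNA values above are high in the 2 KO libraries where the members are lowest, and their part in this was not tested.

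**Figure D1:**
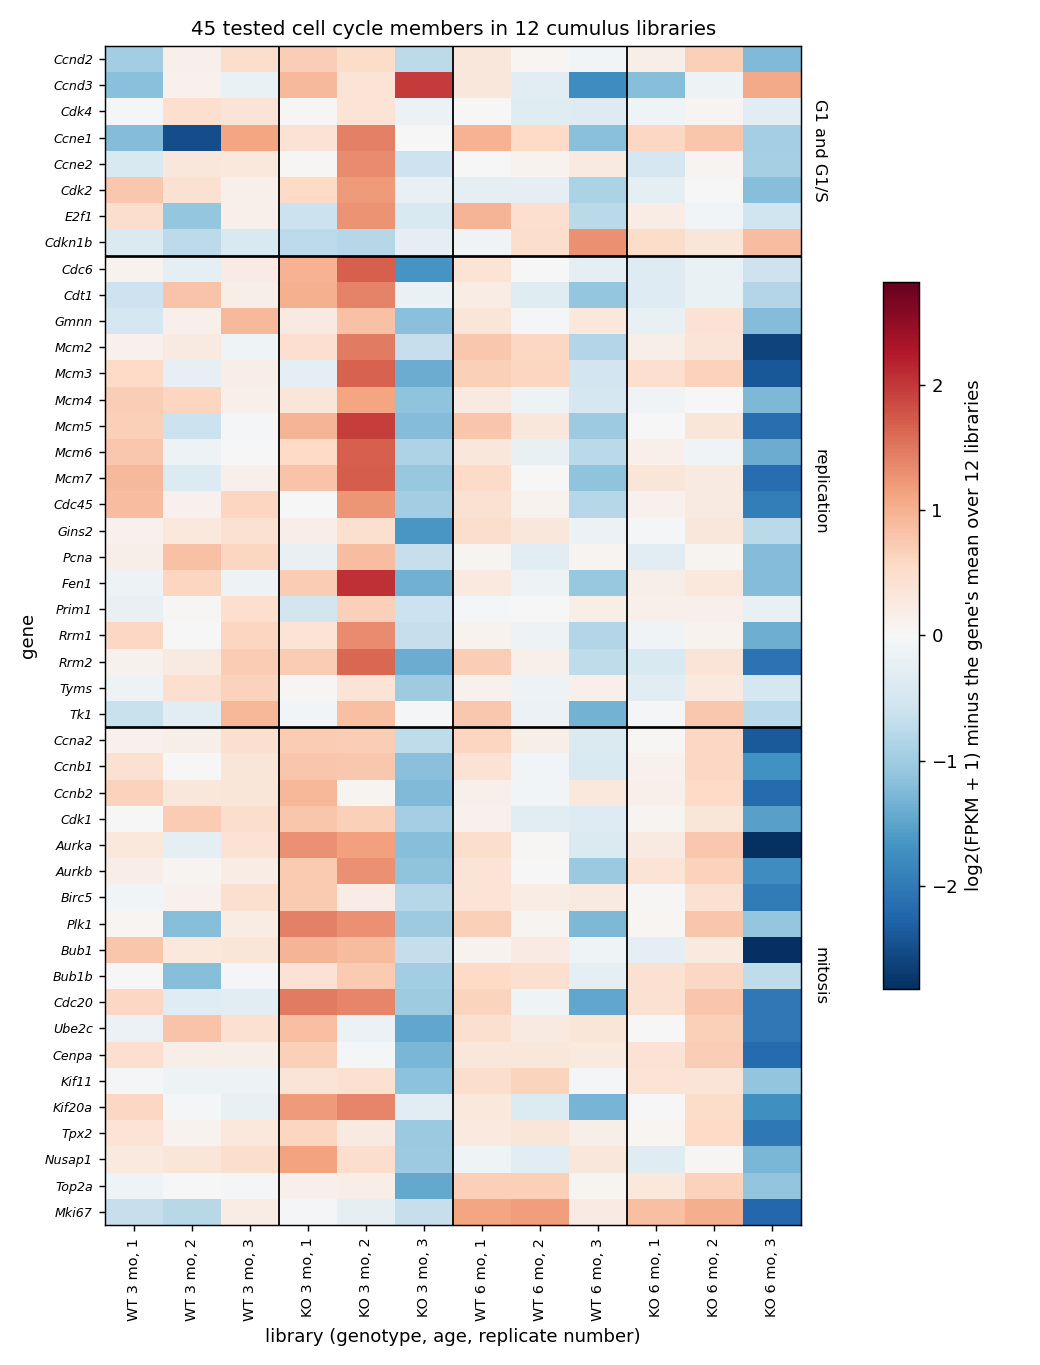
Level of the 45 tested members (rows, by role) in the 12 libraries (columns, by group), as log2(FPKM + 1) minus each gene's mean over the libraries. The 3-month and 6-month KO libraries 3 are below the mean in all 18 replication and all 19 mitosis members, and the 3-month KO library 2 is the highest library for 14 of the 18 replication members.

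At the other end, replication and mitosis did not peak in the same mouse. The 3-month KO library 2 held the highest value of the series for 14 of 18 replication members, and its replication mean, centred on each gene's own mean, was 1.28 on the log2 scale against 0.60 for mitosis. In the 3-month KO library 1 the order was the opposite, with 0.35 for replication and 0.80 for mitosis, and this library held the highest value for 12 of 19 mitosis members. The difference of the mitosis mean from the replication mean was 0.44 in library 1 and -0.67 in library 2 of the 3-month KO mice, and -0.45 in the 6-month KO library 3. It was between -0.19 and 0.34 in the other 9 libraries. The 2 centred means of the 3-month KO libraries 1 and 2 were thus above 0 in both mice, but in different proportion.

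**Figure D2:**
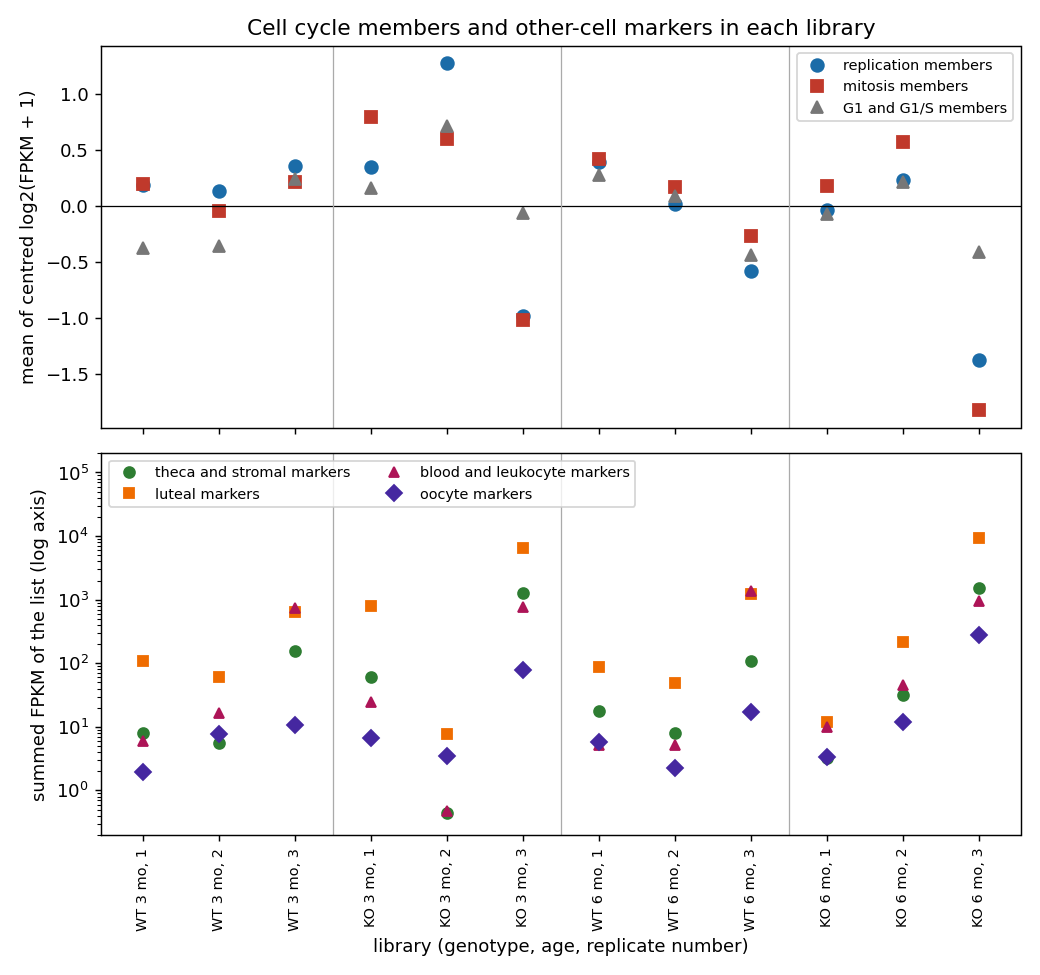
Top, mean centred log2 level of the G1 and G1/S, replication and mitosis members in each of the 12 libraries. Bottom, summed FPKM of the theca and stromal, luteal, blood and leukocyte, and oocyte markers (log axis). The KO libraries 3 have replication means of -0.98 and -1.37 and mitosis means of -1.02 and -1.82, beside luteal sums of 6542 and 9206 FPKM.

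Loss of ClpP moved none of the members past the threshold. With limma on log2(FPKM + 1), and Benjamini-Hochberg adjustment over the 11196 genes tested at a threshold of 0.05, 0 of 45 members were called for KO against WT at 3 months, where 0.00893% of all genes were called. At 6 months 0 of 45 were called, against 0.0268% of all genes, and averaged over both ages 0 of 45, against 0.0179%. The difference between the ages in the KO effect called 0 of 45, against 0.00893%. At an unadjusted p under 0.05 the counts were 1 higher and 0 lower at 3 months, where 3.35% of all genes were higher and 3.45% lower, and 0 in either direction at 6 months, where the shares were 0.768% and 0.456%. Averaged over both ages and in the difference between ages they were 0 as well, in either direction, beside 3.33% higher and 2.63% lower, and 1.05% and 0.947%. Ccnd1 was the 1 member left out of the tests for low values.

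Among the G1 and G1/S genes, the levels were led by Cdk4, the kinase partner of the D-type cyclins. Cdk4 was at 502, 715 and 667 FPKM in the 3-month WT libraries, 531, 675 and 458 in 3-month KO, 523, 405 and 402 in 6-month WT and 474, 547 and 416 in 6-month KO. The highest and lowest of these are 1.78-fold apart, the smallest range of any tested member, and the groups overlap. Of the D-type cyclins, which activate Cdk4, Ccnd2 was by far the most abundant. It was at 37.6, 82.9 and 107 FPKM in 3-month WT, 123, 108 and 44.9 in 3-month KO, 94.8, 78.0 and 71.5 in 6-month WT and 84.5, 120 and 31.2 in 6-month KO, with both KO libraries 3 low. Ccnd1 was nearly absent, at 0 to 0.410 FPKM in 10 libraries, but stood at 3.33 FPKM in the 3-month KO library 3 and 2.15 FPKM in the 6-month KO library 3.

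Ccnd3, the third D-type cyclin, was the 1 member whose KO and WT libraries did not overlap at 3 months, with 5.02% of all genes higher without overlap and 5.22% lower. It was at 2.80, 8.30 and 6.55 FPKM in WT mice and 15.1, 10.2 and 32.3 FPKM in KO, a log2 difference of 1.5 (SE 0.67, n = 3 per group, limma adjusted p = 0.73). The highest value is again in the KO library 3. At 6 months Ccnd3 was at 9.59, 5.80 and 1.53 FPKM in WT mice and 2.74, 6.70 and 16.9 FPKM in KO, so the groups overlap, and the log2 difference was 0.50 (SE 0.67, limma adjusted p = 1). Without the 6-month KO library 3 that difference was -0.08, and without the 6-month WT library 3 it was also -0.08. No member was free of overlap at 6 months, where 3.79% of all genes were higher and 3.01% lower in that way, nor over both ages, where 0.196% and 0.0625% were. Averaged over both ages the Ccnd3 difference was 1.0 (SE 0.47, limma adjusted p = 0.783).

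The E-type cyclins drive Cdk2 at the start of S phase. Ccne1 was at 1.93, 0.210 and 13.6 FPKM in 3-month WT and at 8.04, 17.2 and 5.75 in 3-month KO. The WT mice alone spanned the whole KO range apart from its highest value, and the log2 difference was 1.48 (SE 0.86, limma adjusted p = 0.774). It was 0.66 without the WT library 2 and 2.46 without the WT library 3. At 6 months it was at 12.4, 8.99 and 2.00 FPKM in WT mice and 9.21, 10.7 and 2.49 in KO. Over both ages the difference was 0.75 (SE 0.61, limma adjusted p = 0.823), and the change of the KO effect with age was -1.46 (SE 1.22, limma adjusted p = 1), from -0.65 to -2.44 without the 3-month WT library 2 or 3. Ccne2 was at 7.07, 7.60 and 8.63 FPKM in 6-month WT and 4.81, 7.48 and 3.23 in 6-month KO, a log2 difference of -0.56 (SE 0.46, limma adjusted p = 1) that was -0.32 without the KO library 3. The difference of its KO effect between the ages was -0.75 (SE 0.66, limma adjusted p = 1), and -0.21 without the 3-month KO library 2. E2f1, the transcription factor that starts the replication wave, ran from 0.894 to 8.79 FPKM over the series, lowest in the 3-month WT library 2 and highest in the 3-month KO library 2. The median difference of the 8 tested G1 members was 0.21 at 3 months, with 6 above 0, and 0.01 at 6 months, with 5 above 0, beside an all-gene median of about 0.01. Without the 3 libraries it was 0.55 at 3 months, with 6 above 0, and 0.03 at 6 months, with 4 above 0. The all-gene medians were then -0.02 and 0.03.

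Replication genes are described next, from origin licensing to nucleotide supply. Licensing loads the MCM helicase on DNA through Cdc6 and Cdt1, which geminin (Gmnn) holds back. Cdc6 was at 5.10, 3.75 and 5.68 FPKM in 3-month WT, 10.3, 17.3 and 0.817 in 3-month KO, 6.41, 4.62 and 3.69 in 6-month WT and 3.44, 4.0 and 2.81 in 6-month KO. Its 3-month KO libraries lie on both sides of the WT values, 2 above and 1 below. For each of the 6 MCM subunits the 3-month KO library 2 was above all 3 WT libraries of that age and the KO library 3 below all of them. Mcm5 was at 32.5, 12.9 and 19.4 FPKM in 3-month WT and at 40.1, 80.8 and 8.07 in 3-month KO. At 6 months it was at 35.3, 25.4 and 9.35 FPKM in WT mice and 19.8, 25.5 and 3.83 in KO. Mcm2 was at 32.7, 28.9 and 10.2 FPKM in 6-month WT and 21.3, 24.7 and 2.23 in 6-month KO, a log2 difference of -0.87 (SE 0.76, limma adjusted p = 1) that was 0.09 without the KO library 3. The difference of the KO effect between the ages was -1.22 for Mcm2 (SE 1.07, limma adjusted p = 1) and -1.19 for Mcm5 (SE 1.17, limma adjusted p = 1). These were -0.25 and -0.43 without the 6-month KO library 3 alone, and -1.75 and -2.09 without the 3-month KO library 3 alone. Without the 3 libraries the median of the 18 replication members in that comparison was -0.52.

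The promoters of Mcm6 and Mcm5 are shown because their E2F-type sites are the letters by which this wave of genes is usually recognised. They come from RefSeq on GRCm38.p6 and are the 250 bases before the transcript start, written 5′ to 3′ on the gene's own strand (Mcm6 chr1:128359706-128359955, minus strand; Mcm5 chr8:75109259-75109508, plus strand). Neither window overlaps an annotated exon. Capitals mark E2F-type letters (TTTCCCGC, TTTCGCGC, TTTGCCGC or TTTGGCGC) and CCAAT, on either strand, and the first capital run in each window is a pair of E2F-type matches that overlap on opposite strands.
Mcm6: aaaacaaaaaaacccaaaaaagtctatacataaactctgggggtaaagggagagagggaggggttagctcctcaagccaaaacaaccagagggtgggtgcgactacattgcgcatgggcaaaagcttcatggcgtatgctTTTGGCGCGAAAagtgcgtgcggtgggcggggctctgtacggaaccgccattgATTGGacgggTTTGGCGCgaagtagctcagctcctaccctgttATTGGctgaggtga
Mcm5: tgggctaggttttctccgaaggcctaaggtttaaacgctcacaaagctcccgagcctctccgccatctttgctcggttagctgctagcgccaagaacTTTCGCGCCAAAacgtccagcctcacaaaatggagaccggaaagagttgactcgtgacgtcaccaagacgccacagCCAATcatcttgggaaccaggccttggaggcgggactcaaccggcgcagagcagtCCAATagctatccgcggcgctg
An E2F-type match was present in 4 of the 15 replication members with a promoter in the RefSeq table (26.7%), in 1 of 15 mitosis members and 1 of 6 G1 members, and in 2.67% of all 16753 promoters of the table's genes. In the full RefSeq windows, which are longer, it was present in 6 of 15 replication members (40%), against 3.22% of all promoters, and the mitosis and G1 counts were the same. A match is a description of the letters and not a bound site.

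Pcna, the sliding clamp that holds the DNA polymerases, was the most abundant replication member. It was at 355, 567 and 484 FPKM in 3-month WT, 275, 579 and 202 in 3-month KO, 333, 254 and 334 in 6-month WT and 257, 335 and 136 in 6-month KO. The log2 difference of KO from WT was -0.53 (SE 0.41, limma adjusted p = 0.814) at 3 months and -0.42 (SE 0.41, limma adjusted p = 1) at 6 months, and the groups overlap at both ages. Without the KO library 3 of each age these were -0.20 and -0.06, and without the 3 libraries the 6-month difference was 0.01. Over both ages Pcna had -0.48 (SE 0.29, limma adjusted p = 0.783). Gmnn was at 96.7, 152 and 261 FPKM in 3-month WT, 163, 246 and 60.3 in 3-month KO, 174, 132 and 170 in 6-month WT and 119, 182 and 58.1 in 6-month KO. Gins2, a subunit of the GINS complex of the replicative helicase, was at 89.0, 100 and 111 FPKM in 3-month WT, 93.3, 113 and 25.5 in 3-month KO, 117, 102 and 73.3 in 6-month WT and 79.5, 103 and 47.9 in 6-month KO. In these 2 genes the KO libraries 3 are the lowest of all 12. Over both ages Gins2 had -0.50 (SE 0.34, limma adjusted p = 0.801), and -0.17 without the 3-month KO library 3.

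For nucleotide supply, Rrm2, the regulated subunit of ribonucleotide reductase, was at 98.6, 108 and 149 FPKM in 3-month WT and 151, 279 and 33.6 in 3-month KO. At 6 months it was at 148, 101 and 54.7 FPKM in WT mice and 67.1, 117 and 20.7 in KO. The 13.5-fold range of Rrm2 over the series contrasts with Tyms, the thymidylate synthase, whose range was 3.21-fold. Tyms was at 44.7, 69.3 and 78.2 FPKM in 3-month WT and 50.6, 65.0 and 24.3 in 3-month KO, a log2 difference of -0.52 (SE 0.37, limma adjusted p = 0.807) that was -0.12 without the KO library 3. Prim1, the catalytic subunit of primase, had the smallest range of the replication members, 2.48-fold, between 33.7 and 83.5 FPKM. The other replication members are the helicase subunits Mcm3, Mcm4, Mcm6 and Mcm7, the helicase cofactor Cdc45, the licensing factor Cdt1, the flap endonuclease Fen1, the reductase subunit Rrm1 and thymidine kinase, Tk1. They had 12-library means from 12.2 FPKM (Cdt1) to 87.4 FPKM (Mcm6).

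As a set, the 18 replication members had a median log2 difference of -0.04 at 3 months, with 8 above and 10 below 0, and of -0.36 at 6 months, with 3 above and 15 below. Over all genes tested the 6-month median was near 0, with 51.5% above it. These medians changed sign with single mice. At 3 months the median was 0.50 without the KO library 3 and -0.59 without the KO library 2. At 6 months it was 0.13 without the KO library 3 and -0.59 without the KO library 2. Without the 3 libraries 15 of 18 replication members were above 0 at 3 months and 8 of them were higher at an unadjusted p under 0.05, where 6.72% of all 10474 genes tested were higher and 7.21% lower. None of the 8 was called by limma, where 0.00955% of all genes were, and at 6 months the median was -0.06 with 6 of 18 above 0. In that setting Mcm5 had a log2 difference of 1.46 (limma adjusted p = 0.243) and Cdc6 of 1.31 (limma adjusted p = 0.234) at 3 months, with 2 KO libraries against 3 WT libraries.

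Mitosis genes spanned the entry kinases, the checkpoint and the spindle. Cyclin B with Cdk1 drives entry into mitosis. Ccnb2 was at 313, 250 and 252 FPKM in 3-month WT, 380, 211 and 83.2 in 3-month KO, 221, 189 and 247 in 6-month WT and 222, 293 and 43.8 in 6-month KO. Ccnb1 and Cdk1 ran from 47.4 to 267 and from 39.8 to 201 FPKM over the series, each lowest in the 6-month KO library 3. Plk1, a kinase of mitotic entry and exit, was at 26.4, 10.53 and 29.6 FPKM in 3-month WT and 69.9, 64.0 and 12 in 3-month KO. Of its KO mice 2 were above every WT mouse and 1 within the WT range, and the log2 difference was 0.88 (SE 0.73, limma adjusted p = 0.829), or 1.67 without the KO library 3 and 0.44 without the WT library 2. Kif20a, a kinesin of cytokinesis, was at 17.99, 11.2 and 10.02 FPKM in WT mice and 28.3, 31.96 and 9.35 in KO, with 2 KO mice above and 1 below the WT range and a log2 difference of 0.65 (SE 0.63, limma adjusted p = 0.852), or 1.18 without the KO library 3.

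The ubiquitin ligase arm ends mitosis. Ube2c, the ubiquitin-conjugating enzyme of the anaphase-promoting complex, had the highest mean of all 46 members, 664 FPKM. It was at 520, 1019.7 and 778 FPKM in 3-month WT, 1052, 521 and 211 in 3-month KO, 789, 687 and 736 in 6-month WT and 580, 927 and 144 in 6-month KO. Averaged over both ages its log2 difference was -0.70 (SE 0.46, limma adjusted p = 0.793), and it was -0.31 without the 6-month KO library 3 and 0.01 without the 4 libraries numbered 3. Tpx2, a spindle assembly factor, had -0.53 over both ages (SE 0.41, limma adjusted p = 0.821), and -0.14 without that KO library. Cdc20, the activator of that complex, was at 118, 61.6 and 63.9 FPKM in 3-month WT and 219, 205 and 39.0 in 3-month KO. At 6 months Cdc20 was at 122, 72.1 and 27.7 FPKM in WT mice and 107, 137 and 18.6 in KO, so that the libraries 3 are the lowest of their group in 3 of 4 groups.

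Birc5, or survivin, belongs to the chromosomal passenger complex with Aurkb. It was at 284, 322 and 408 FPKM in 3-month WT, 495, 346 and 170 in 3-month KO, 390, 347 and 355 in 6-month WT and 306, 403 and 75.2 in 6-month KO. Its 6-month log2 difference was -0.79 (SE 0.54, limma adjusted p = 1), and -0.05 without the KO library 3 and -1.25 without the KO library 2. Cenpa, the histone H3 variant of centromeres, was at 227, 183 and 182 FPKM in 3-month WT, 261, 158 and 66.3 in 3-month KO, 204, 204 and 197 in 6-month WT and 218, 263 and 35.2 in 6-month KO. The WT values at 6 months had an SD of 4.11 FPKM and the KO values an SD of 121 FPKM (n = 3 each). Bub1, a kinase of the spindle checkpoint, was at 29.7, 32.2 and 25.3 FPKM in 6-month WT and 22.5, 33.3 and 3.05 in 6-month KO, a log2 difference of -1.01 (SE 0.67, limma adjusted p = 1). That difference was -0.08 without the KO library 3 and -1.62 without the KO library 2. The change of the KO effect with age was -0.93 (SE 0.95, limma adjusted p = 1) for Bub1 and -1.05 (SE 0.99, limma adjusted p = 1) for Mki67. It was about 0.01 for both without the 6-month KO library 3 alone. That omission keeps the 3-month KO library 3, the lowest of its group at 16.8 FPKM for Bub1 and 9.83 FPKM for Mki67. Without the 3 libraries the median change of the mitosis members was -0.46, as with all 12. The other mitosis members, apart from Top2a and Mki67, are cyclin A2 (Ccna2), the Aurora kinases Aurka and Aurkb, the checkpoint protein Bub1b, the spindle proteins Tpx2 and Nusap1 and the spindle motor Kif11. They had 12-library means from 17.3 FPKM (Bub1b) to 85.2 FPKM (Ccna2).

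The promoters of Top2a and Kif11 are shown as examples of the CHR and CCAAT pairing of the later wave. They come from RefSeq on GRCm38.p6, cover the 250 bases before the start and overlap no annotated exon (Top2a chr11:99024190-99024439, minus strand; Kif11 chr19:37376132-37376381, plus strand). Capitals mark CHR letters (TTTGAA or TTCGAA) and CCAAT on either strand.
Top2a: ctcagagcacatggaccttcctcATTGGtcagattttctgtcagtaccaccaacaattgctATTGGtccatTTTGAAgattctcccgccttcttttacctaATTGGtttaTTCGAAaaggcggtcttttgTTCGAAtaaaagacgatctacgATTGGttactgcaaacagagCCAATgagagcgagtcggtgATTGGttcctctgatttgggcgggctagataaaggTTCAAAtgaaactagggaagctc
Kif11: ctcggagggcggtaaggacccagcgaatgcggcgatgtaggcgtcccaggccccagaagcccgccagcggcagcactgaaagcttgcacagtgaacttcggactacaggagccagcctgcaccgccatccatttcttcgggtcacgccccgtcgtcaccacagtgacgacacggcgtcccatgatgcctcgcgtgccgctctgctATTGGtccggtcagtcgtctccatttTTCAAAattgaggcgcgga
Both elements were present in 8 of 15 mitosis members with a promoter (53.3%), in 3 of 15 replication members (20.0%) and in none of 6 G1 members, against 7.46% of all promoters. The shares depend on the window. In the full RefSeq windows, which are longer, both were in 12 of 15 mitosis members (80%) and 3 of 15 replication members, against 9.0% of all promoters. The Top2a window holds 4 CHR and 6 CCAAT matches and the Kif11 window 1 of each. CHR letters alone were in 8 of 15 mitosis members, 4 of 15 replication members and 17.5% of all promoters, and CCAAT in 13 of 15, 10 of 15 and 39.1%.

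As a set, the 19 mitosis members had a median log2 difference of -0.08 at 3 months, with 7 above and 12 below 0, and of -0.53 at 6 months, with 3 above and 16 below. The 3-month median was 0.45 without the KO library 3 and -0.37 without the KO library 1. The 6-month median was 0.23 without the KO library 3 and -0.88 without the KO library 2. Without the 3 libraries 18 of 19 mitosis members were above 0 at 3 months, and 7 of them were higher and 0 lower at an unadjusted p under 0.05, beside 6.72% and 7.21% of all genes. Among these Plk1 had a log2 difference of 1.67 (limma adjusted p = 0.235), Cdc20 of 1.44 (limma adjusted p = 0.229) and Aurka, the spindle pole kinase, of 1.07 (limma adjusted p = 0.243). At 6 months 10 of 19 were above 0 and the median was 0.04, and 0 were called by limma or had an unadjusted p under 0.05, beside 0.0191% of all genes called and 0.496% higher and 0.477% lower. The KO effect on the mitosis members thus had a different sign in the 12 libraries and without those 3, and no member was called in either. Over both ages the medians of the replication and mitosis members were -0.19 and -0.33 in the 12 libraries. Without the 3 they were 0.23 and 0.19, with 15 of 18 and 18 of 19 above 0, beside 51.2% of all genes. The change of the KO effect with age had medians of -0.31 and -0.46. Those were -0.52 and -0.46 without the 3, with 15 of 18 and 16 of 19 below 0.

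**Figure D3:**
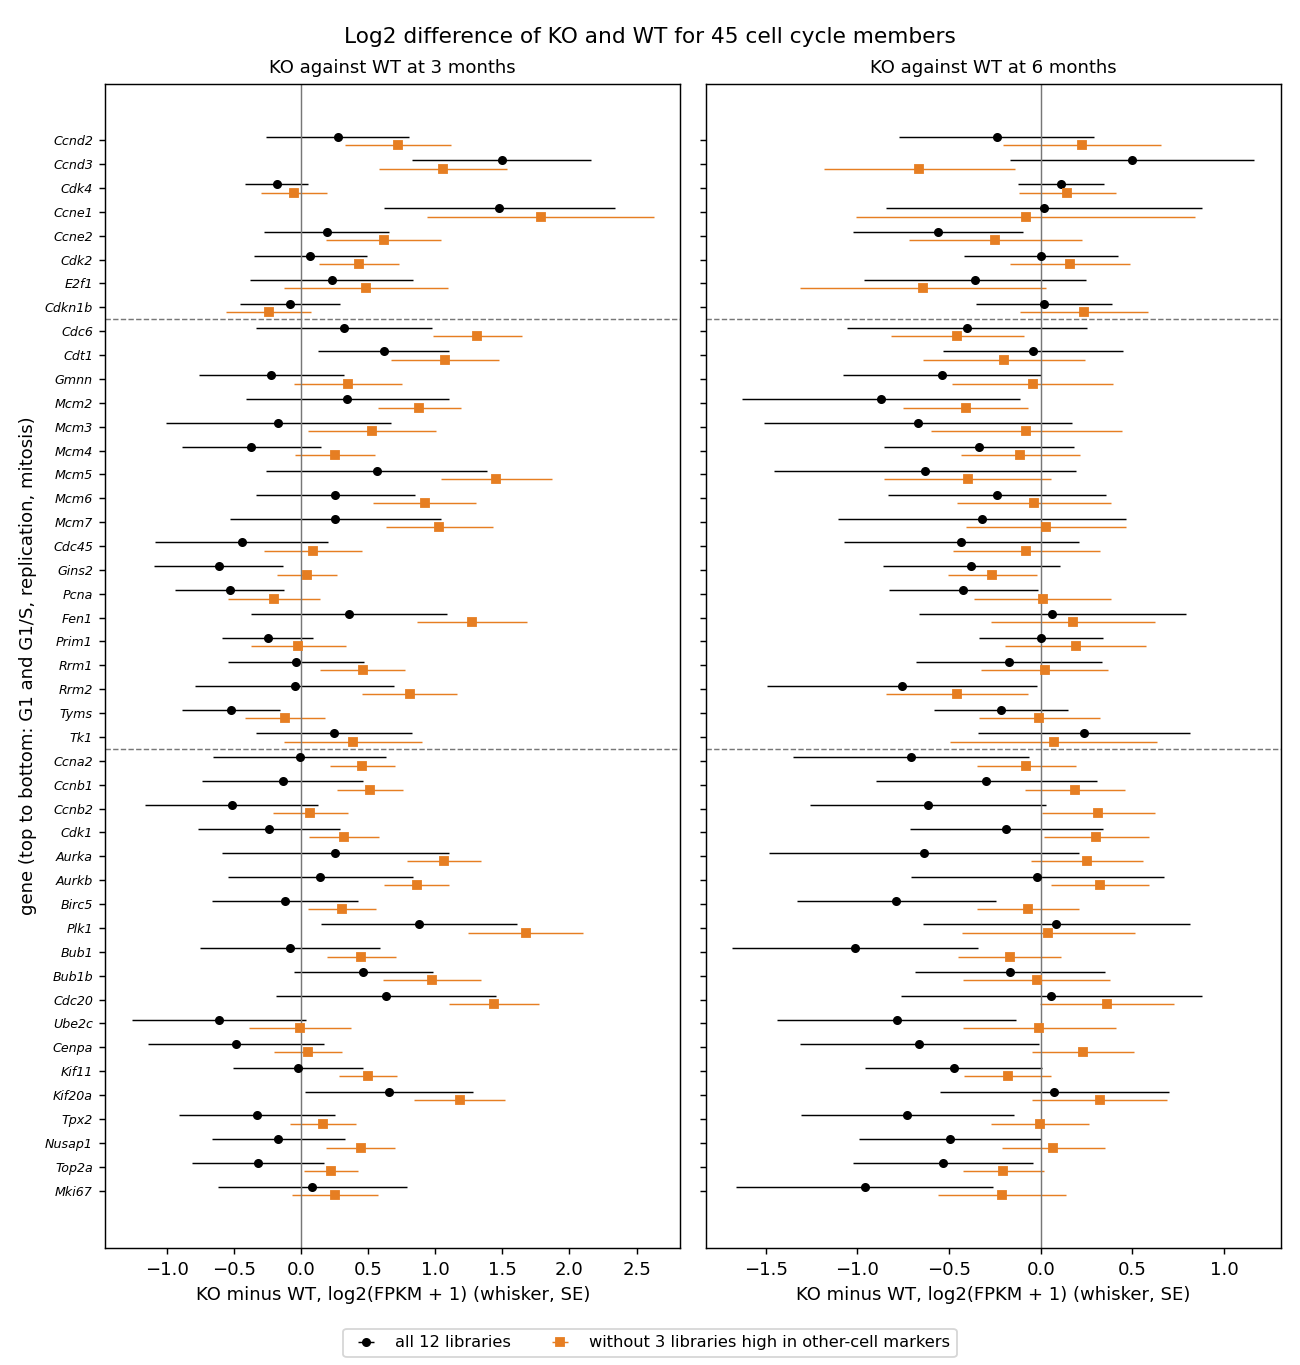
Log2 difference of KO from WT with its SE for each tested member at 3 and 6 months, in all 12 libraries (circles) and without the 3 libraries high in luteal and blood markers (squares). At 3 months the median of the mitosis members goes from -0.08 to 0.45, and at 6 months from -0.53 to 0.04.

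Age was compared in mice that share no library between the genotypes. In WT 0 of 45 members were called between 6 and 3 months by limma, against 0.00893% of all genes, and in KO 0 of 45, against 0.0179%. At an unadjusted p under 0.05, 1 member was higher and 1 lower in WT, where 2.97% of all genes were higher and 4.47% lower, and 1 was higher and 2 lower in KO, beside 3.76% and 2.72%. Cdkn1b was the higher member and Cdk2 a lower member in each genotype. Averaged over both genotypes, a comparison added after the data were seen, 0 of 45 were called by limma, against 0.00893% of all genes. There 1 member was higher (Cdkn1b) and 2 were lower (Cdk2 and Cdt1) at an unadjusted p under 0.05, beside 6.56% and 6.32% of all genes.

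Cdkn1b encodes the kinase inhibitor p27. It was at 1.95, 1.33 and 1.89 FPKM in 3-month WT and 1.33, 1.26 and 2.21 in 3-month KO, and at 2.63, 4.50 and 8.61 in 6-month WT and 4.59, 3.95 and 6.19 in 6-month KO. All 6 libraries of 6-month mice lie above all 6 of 3-month mice. No other member had this complete separation higher or lower, and among all genes 1.04% were higher and 0.715% lower in that way. The log2 difference was 1.09 (SE 0.37, limma adjusted p = 0.664) in WT, 1.19 (SE 0.37, limma adjusted p = 0.745) in KO and 1.14 (SE 0.26, unadjusted p = 0.00102, limma adjusted p = 0.248) over both. Without the 3 libraries the last was 0.96 (limma adjusted p = 0.122), and in WT alone the difference fell to 0.72 without the 6-month library 3, the highest value of the series. These are low FPKM values, and the number of reads behind them is unknown.

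Cdk2, the kinase that p27 inhibits, had its lower values at 6 months. It was at 23.5, 18.3 and 14.8 FPKM in 3-month WT and 10.9, 10.9 and 6.71 in 6-month WT, which do not overlap, with a log2 difference of -0.93 (SE 0.42, limma adjusted p = 0.664). In KO it was at 20.0, 32.05 and 11.4 FPKM at 3 months and 11.1, 13.5 and 5.24 at 6 months, with a log2 difference of -0.99 (SE 0.42, limma adjusted p = 0.745). The KO groups overlap through library 3 of the younger mice. The difference was -0.63 without library 3 of the older mice and -1.35 without library 3 of the younger mice. Averaged over both genotypes the difference was -0.96 (SE 0.30, limma adjusted p = 0.28).

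**Figure D4:**
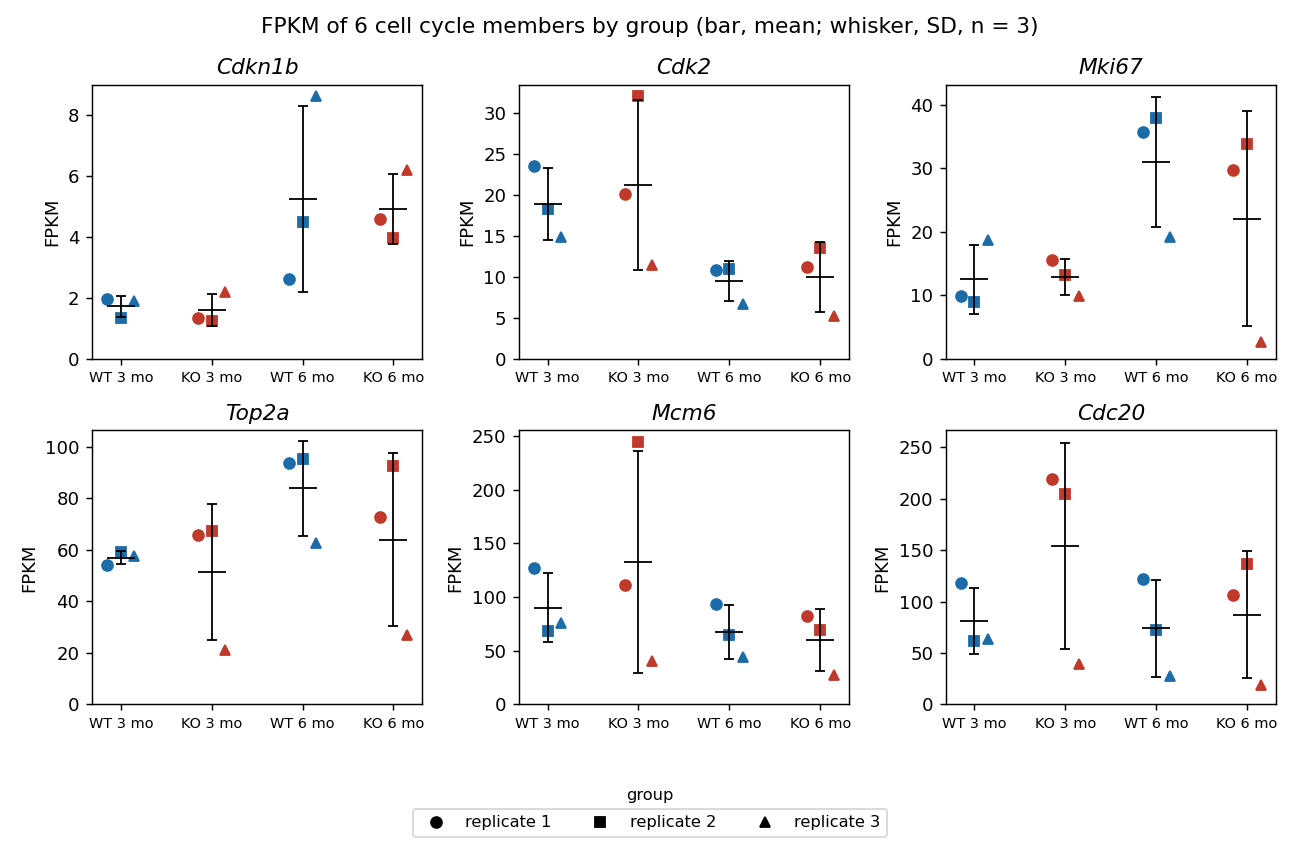
FPKM of Cdkn1b, Cdk2, Mki67, Top2a, Mcm6 and Cdc20 in each library by group (points, marked by replicate number), with bars at the group mean and whiskers of 1 SD, n = 3. Cdkn1b is at 1.26 to 2.21 FPKM in the 3-month libraries and at 2.63 to 8.61 FPKM in the 6-month libraries.

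Mki67, the Ki-67 proliferation antigen, was above every 3-month library in 5 of the 6 libraries of 6-month mice. It was at 9.94, 8.90 and 18.7 FPKM in 3-month WT and at 35.7, 37.9 and 19.2 in 6-month WT. These groups do not overlap, but the 2 libraries numbered 3 nearly meet, and the log2 difference was 1.25 (SE 0.70, limma adjusted p = 0.708). In KO it was at 15.6, 13.2 and 9.83 FPKM at 3 months and 29.7, 33.8 and 2.67 at 6 months, where library 3 is the lowest of all 12. Without the 4 libraries numbered 3, the WT difference was 1.86 (SE 0.24, limma adjusted p = 0.0316) with 2 mice per group, and the difference over both genotypes was 1.48 (SE 0.17, limma adjusted p = 0.0461). In those settings 0.367% and 0.058% of all genes were called. Without the 3 libraries, which keeps the 3-month WT library 3, the difference over both was 1.32 and did not pass (limma adjusted p = 0.12), so the call for Mki67 rests on the choice of libraries.

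Members without overlap between the ages were about as common in WT as among all genes. Of the 45 tested, 3 were higher at 6 months in that way (Cdkn1b, Mki67 and Top2a) and 4 were lower (Cdk2, Pcna, Ccnb2 and Bub1). Among all genes the shares were 7.94% and 7.81%. Top2a, the topoisomerase that untangles chromosomes, was at 54.1, 59.0 and 57.7 FPKM in 3-month WT and 93.9, 95.0 and 62.5 in 6-month WT. Bub1 was at 48.0, 34.0 and 35.2 FPKM in 3-month WT and 29.7, 32.2 and 25.3 in 6-month WT. In KO, Cdkn1b alone did not overlap, against 6.82% of all genes higher and 5.98% lower. Bub1 was at 54.5, 51.7 and 16.8 FPKM in 3-month KO and 22.5, 33.3 and 3.05 in 6-month KO, a log2 difference of -1.33 (SE 0.67, limma adjusted p = 0.745) that was -0.40 without the 6-month library 3. Kif20a was at 28.3, 31.96 and 9.35 FPKM in 3-month KO and 11.9, 17.2 and 2.85 in 6-month KO, a log2 difference of -1.15 (SE 0.63, limma adjusted p = 0.75). It was -0.49 without the 6-month library 3 and -1.68 without the 3-month library 3. For both genes, leaving out the 6-month library 3 alone keeps the 3-month library 3, the lowest of its group. Over both genotypes Bub1 had -0.87 (SE 0.48, limma adjusted p = 0.452) and Kif20a -0.86 (SE 0.44, limma adjusted p = 0.426), and -0.40 and -0.53 without the 6-month KO library 3. Without the 3-month KO library 3 Kif20a had -1.13. Bub1b, a checkpoint protein, had 0.68 in WT (SE 0.52, limma adjusted p = 0.79), and 0.29 without the 3-month library 2.

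Among the replication members, Cdt1 was the 1 with an unadjusted p under 0.05 with age in KO. It was at 22.2, 29.5 and 9.27 FPKM at 3 months and 8.07, 9.27 and 5.60 at 6 months, a log2 difference of -1.19 (SE 0.49, limma adjusted p = 0.745). Over both genotypes it was -0.86 (SE 0.35, limma adjusted p = 0.342). In WT Cdt1 was at 6.73, 19.2 and 11.9 FPKM at 3 months and 12.5, 8.12 and 4.46 at 6 months, and the groups overlap. Rrm1, the large subunit of ribonucleotide reductase, was at 72.4, 48.1 and 73.6 FPKM in 3-month WT and 51.4, 43.8 and 26.8 in 6-month WT, a log2 difference of -0.68 (SE 0.51, limma adjusted p = 0.777) that was -0.42 without the 6-month library 3. For Rrm1 the difference was -0.81 in KO (SE 0.51, limma adjusted p = 0.761), or -0.33 without the 3-month library 2, and -0.75 over both genotypes (SE 0.36, limma adjusted p = 0.398). Pcna had -0.59 in WT (SE 0.41, limma adjusted p = 0.76). The median difference of the replication members with age was -0.30 in WT and -0.67 in KO, with 13 and 15 of 18 below 0, and that of the mitosis members was -0.12 and -0.53, with 11 and 15 of 19 below 0. In WT the mitosis median was 0.05 without the 6-month library 3 and -0.32 without the 6-month library 1. In KO it was 0.21 without the 6-month library 3 and -1.09 without the 3-month library 3. Leaving out the 3 libraries removes library 3 of both KO ages. The KO median was then -0.40 for mitosis, with 16 of 19 below 0, and -0.74 for replication, with 17 of 18 below 0. At an unadjusted p under 0.05, 8 replication members were lower and 0 higher in KO, and 4 mitosis members lower and 1 higher. Of all genes 5.27% were lower and 6.87% higher, and none of these members was called by limma. In WT in the same setting 12 of 19 mitosis members were above 0, with 4 higher and 1 lower at that p. Of the replication members 8 of 18 were above 0 in WT, with 0 higher and 0 lower. Of all genes 4.9% were higher and 7.1% lower in WT, and none of these members was called by limma. The replication medians were below 0 with any 1 library left out, at -0.05 in WT without the 6-month library 3 and at -0.05 in KO without the 3-month library 2. Without the 4 libraries numbered 3 the replication median was 0.03 in WT, with 10 of 18 above 0, and -0.74 in KO.

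Further genes of the same machinery were read from lists of 45 other replication genes and 58 other mitosis genes. None was called by limma in either KO comparison. At 3 months 1 of the 45 was higher and 0 lower at an unadjusted p under 0.05, and 0 of the 58 in either direction, beside 3.35% of all genes higher and 3.45% lower. At 6 months 0 of both lists were, beside 0.768% and 0.456%, with 39 of 45 and 47 of 58 below 0 and medians of -0.35 and -0.46. Those medians were 0.05 and 0.14 without the 6-month KO library 3, as for the members. Without the 6-month KO library 2 they were -0.59 and -0.83. Of the other replication genes, Pola1, the catalytic subunit of DNA polymerase alpha, was at 24.5, 23.8 and 24.8 FPKM in 6-month WT and 19.2, 18.5 and 7.89 in 6-month KO. Its log2 difference was -0.74 (SE 0.36, limma adjusted p = 1), and the groups do not overlap, as for 1 higher and 1 lower of the 45, beside 3.79% and 3.01% of all genes. Without the KO library 3 the Pola1 difference was -0.35. Tipin, of the fork protection complex, had -0.52 at 6 months. Rnaseh2a, a subunit of the RNase H2 complex, had a log2 difference of 0.86, and Orc4, of the origin recognition complex, of -0.62 at 3 months. Among the other mitosis genes, Smc2, a condensin subunit, and Cks2, a small partner of cyclin-dependent kinases, had -1.0 and -0.81 at 6 months. Those were -0.19 and -0.45 without the KO library 3, and -1.52 and -1.15 without the KO library 2. At 3 months Cks1b had -0.60 and the spindle checkpoint gene Mad2l1 had -0.61.

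G1 control was also read from 28 genes outside the members, of which 27 were tested, and from 11 quiescence and granulosa cycle brake genes. The brake list holds the member Cdkn1b and shares Rbl2, Ccng2 and Cdkn1c with the 28 genes. With all 12 libraries none was called in either KO comparison by limma. At 3 months 2 of the 27 were higher and 3 lower at an unadjusted p under 0.05, beside 3.35% and 3.45% of all genes. The 1 higher and 1 lower of the 11 (Rbl2 and Ccng2) are among these, and at 6 months 0 in both lists were, beside 0.768% and 0.456%. Cdkn1a, which encodes the p53 target and kinase inhibitor p21, was at 70.4, 91.2 and 6.34 FPKM in 3-month WT and 0.666, 6.67 and 7.97 in 3-month KO. Its log2 difference was -2.91 (SE 0.88, limma adjusted p = 0.664), but the WT library 3 lies within the KO range. Without that library the difference was -4.06 (limma adjusted p = 0.0625), and without the KO library 1 it was -2.13. Without the 4 libraries numbered 3 it was -4.50 (limma adjusted p = 0.0445) with 2 mice per group, a setting in which 0.821% of all genes were called, so the call for Cdkn1a rests on the choice of libraries. Rbl2, the pocket protein p130, had a log2 difference of 1.25 (SE 0.40, limma adjusted p = 0.664) and Ccng2, an atypical cyclin found in resting cells, of -1.43 (SE 0.46, limma adjusted p = 0.664). In both of these genes the KO and WT libraries do not overlap at 3 months. In each of the 2 lists 2 genes were higher and 1 lower in that way, beside 5.02% and 5.22% of all genes. At 6 months Myc had 0.97, E2f2 -0.49, the p57 gene Cdkn1c 0.55 and Btg1, an antiproliferative factor, -0.35, each with a limma adjusted p of 1.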

How the data were processed

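RNA was measured in 12 libraries of mouse cumulus cells, 3 per group of genotype and age, by Smart-Seq2 and Nextera XT with 75 bp paired reads, per the labels' protocols. The authors deposited FPKM values per gene. The submitters' processing notes name Cufflinks 1.2.1, TopHat2 2.0.10, Bowtie2 2.1.0, cutadapt, SAMtools 0.1.18 and FastQC, and GRCm38/mm10. Their gene annotation is not stated in the sources used here. Smart-Seq2 does not keep strand, so overlapping genes share reads. Depth is unknown; relative depth was read from low values. Of the table's columns of samples 0 were left unmapped.

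Genes at 1 FPKM or more in 3 or more libraries (11196) were tested as log2(FPKM + 1), which understates folds of low genes, with limma 3.58.1 in R 4.3.3. The model had 4 group means over 12 libraries (8 residual degrees of freedom, empirical Bayes with trend), 2-sided, with Benjamini-Hochberg adjustment over all genes and a threshold of 0.05. Clpp also had an exact permutation test. Scripts were tested on simulated data. The members, gene lists and marker lists were chosen with earlier results of these data known.

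Tests are printed for the 2 members of each role with the smallest unadjusted p in each comparison, and library values also for the 4 of highest mean. From each list of other genes the 2 of smallest p in each KO comparison at 1 age are named; other names were chosen after their values were seen. Promoter letters were searched in RefSeq windows (GRCm38.p6), found for 36 of the 46 members.

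Replicate numbers were checked for pairing by the correlation of deviations from group means. For KO against WT at 6 months they were 0.158, 0.373 and 0.465, and with age in KO 0.114, 0.394 and 0.653, all over 0.1. At 3 months they were 0.0946, -0.0185 and 0.205, and with age in WT 0.0319, 0.0303 and 0.278. In each of these comparisons number 1 correlated best with number 2 of the other group, and number 2 with number 1. Only number 3 correlated best with its own number, so the values over 0.1 do not show that equal numbers are pairs. No label says what the numbers share. Alternatives were other pseudocounts, filters, scaling, groups fitted alone, the replicate block and libraries left out.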

Additional observations from a re-analysis of the deposited data

How the results depend on the processing

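Without 1 library, or with another pseudocount, filter, scaling or group of libraries, 0 members were called in 132 of 134 settings, and 1 member, Mki67, was called in each of the other 2. Both left out the 4 libraries numbered 3 (6 against 3 months in WT, and over both genotypes). It also brought the 1 call among the other cell cycle genes, Cdkn1a at 3 months. That omission also put the median log2 difference at 3 months at 0.68 for the G1 members, 0.75 for the replication members and 0.0668 for the other G1 control genes, and that of the G1 members with age in WT at 0.56. Leaving out 1 library put the 3-month median of the other replication genes between -0.41 and 0.33, and the change of the KO effect with age between -0.78 and -0.10 for the G1 members and between -0.18 and 0.22 for the other G1 control genes. Of single members at 6 months, Ccnd3 was at -0.66 and Pcna at 0.0109 without the 3 libraries and also without the 4. Leaving out 1 library gave -0.0833 to 1.05 for Ccnd3 and -1.40 to 0.0923 for Mcm2 at 6 months, and for the age difference of the KO effect -1.62 to 0.00572 in Mki67 and -1.53 to 0.00757 in Bub1. Over both ages Tpx2 was at 0.0805 without the 3 and at 0.0903 without the 4, where Ube2c was at 0.00885, and Tyms at 3 months was at 0.0418 without the 4. Clpp itself was between -5.56 and -4.63 at 3 months with 1 library left out, but did not pass without the WT library 2 (limma adjusted p = 0.108), the KO library 2 (0.0621) or the KO library 3 (0.0719). It also did not pass in these settings, at 3 months with -5.52 (0.0564) for a pseudocount of 0.1, -5.03 with no filter (0.0918) or only the groups compared (0.0655), and at 6 months -5.25 with only the groups compared (0.0689). With the replicate block the difference of Clpp was -5.03 (limma adjusted p = 0.398) at 3 months and -5.25 (limma adjusted p = 0.255) at 6 months, and the block changed no call of a member. Cdkn1b had no value with the filter at 5 FPKM, and the cause of these shifts was not tested.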
